A study of Mus musculus with 4 samples.

Results

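Conventional dendritic cells are antigen presenting cells that take up material, cut it into peptides and show these to T cells on MHC molecules. They depend on the growth factor receptor Flt3, and they come in a cross-presenting subset (cDC1), which needs the transcription factor Batf3, and a CD4 T cell priming subset (cDC2), which carries Sirpa. When they mature they rearrange their actin skeleton and travel towards T cell areas, and in the spleen they are a minority of the MHC class II cells, most of which are B cells. The markers described here are 10 genes chosen by symbol, and all 10 were found among the 17519 genes of the deposited table. They are Flt3, Zbtb46, Itgax and Dpp4, which are read in conventional dendritic cells of both subsets or in most of them, Clec9a, Batf3 and Itgae of the cDC1 subset, Cd209a and Sirpa of the cDC2 subset, and Fscn1 of mature cells. Most of them are not exclusive to these cells: Dpp4 and Itgae are also made by T cells, Sirpa and Itgax by macrophages, and Flt3 by plasmacytoid dendritic cells.

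The RNA came from magnetically isolated MHC class II positive spleen cells of adult C57Bl.6 mice. One library was made from resting cells on the day of isolation (day 0, no PSA), and 3 libraries were made from cells kept in culture for 24 h with 50 µg/ml PSA, the capsular polysaccharide A of Bacteroides fragilis (day 1). No cells cultured without PSA were analysed here, so PSA, a day in culture and the making of the lone day 0 library cannot be told apart in any difference below. The labels do not tell if separate mice gave the day 1 libraries. Values are FPKM, in which fragments are divided by transcript length and by the number of mapped reads. The day 0 library stood apart: by the step in FPKM that 1 fragment is worth, day 1 replicates 1, 2 and 3 had 14.3, 15.9 and 22.0 times its depth, 42.1% of genes were listed at 0 at day 0 against 11.8% to 15.2% at day 1, and protein-coding genes held 11.5% of its summed FPKM against 80.2% to 83.4%. In a bulk sample, fewer dendritic cells and less RNA per cell cannot be told apart.

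At day 1 some of the markers stood lower than at day 0, some higher, and 1 lay between. Of 9 markers tested, limma called 3 lower (Clec9a, Itgax and Cd209a) and 2 higher (Flt3 and Dpp4). These calls take the spread of the lone day 0 library from the far deeper day 1 libraries and leave out its counting error, and for Flt3, Itgax and Cd209a the day 1 mean lay inside the day 0 counting interval. Over all 13903 genes tested, 19.0% were called lower and 35.0% higher, so calls are common in this comparison and the markers' counts are read against these shares. The authors' deposited table, which calls 2.53% of its genes lower and 0.280% higher, calls 1 of the 10 markers lower (Itgax) and none higher. Day 0 lay above every day 1 library for 4 markers (Clec9a, Itgax, Cd209a and Sirpa; 25.4% of all genes did) and below every one for 5 (Flt3, Dpp4, Fscn1, Itgae and Zbtb46; 48.6% of all genes did). With 1 library against 3, an exact permutation test of a single gene cannot give a two-sided p below 0.25.

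Sequences upstream of the genes are shown for the 3 markers that limma called lower, since these moved in the same direction. Each runs 5′ to 3′ on the strand of the gene, from 250 bases before the RefSeq start to the start base (GRCm38.p6), and capitals mark a match to a searched motif. The Itgax window is chr7:128129300-128129550 on the plus strand, the Clec9a window chr6:129408612-129408862 on the plus strand, and the Cd209a window chr8:3748984-3749234 on the minus strand.
Itgax: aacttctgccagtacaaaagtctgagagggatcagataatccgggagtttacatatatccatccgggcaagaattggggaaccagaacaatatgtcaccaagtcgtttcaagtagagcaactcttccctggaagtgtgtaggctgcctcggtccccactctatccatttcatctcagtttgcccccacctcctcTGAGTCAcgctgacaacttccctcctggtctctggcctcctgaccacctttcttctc
Clec9a: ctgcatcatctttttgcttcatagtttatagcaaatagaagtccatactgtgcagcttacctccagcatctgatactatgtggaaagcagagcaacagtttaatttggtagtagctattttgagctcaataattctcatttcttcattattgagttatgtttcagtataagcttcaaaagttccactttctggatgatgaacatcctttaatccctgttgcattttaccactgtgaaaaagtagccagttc
Cd209a: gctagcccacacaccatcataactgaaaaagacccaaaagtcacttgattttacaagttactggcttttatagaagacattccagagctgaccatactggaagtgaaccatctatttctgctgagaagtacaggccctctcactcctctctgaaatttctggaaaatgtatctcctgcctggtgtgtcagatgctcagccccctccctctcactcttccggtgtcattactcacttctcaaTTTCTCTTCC
Searched on both strands of 300-base windows, which reach 50 bases past the start, were TGANTCA (bound by AP-1 and BATF factors), the composite element of ETS and IRF factors, and GAGGAAGT (bound by PU.1); RefSeq windows were matched for 8 of the 10 markers. TGANTCA was found in 2 of the 8, in Itgax from 56 to 50 bases before the start and in Zbtb46 from 61 to 55 bases before a start inside the gene, against 7.81% of all 32851 windows. The composite element was found in 1, in the last bases up to the start base of Cd209a, on the opposite strand, against 2.72% of all windows, and GAGGAAGT in 0, against 3.20%. The Clec9a window held none of the 3 and was 35.9% G and C, against 50.2% in Itgax and 45.0% in Cd209a. A match is a description of the letters and not a binding site.

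**Figure D1:**
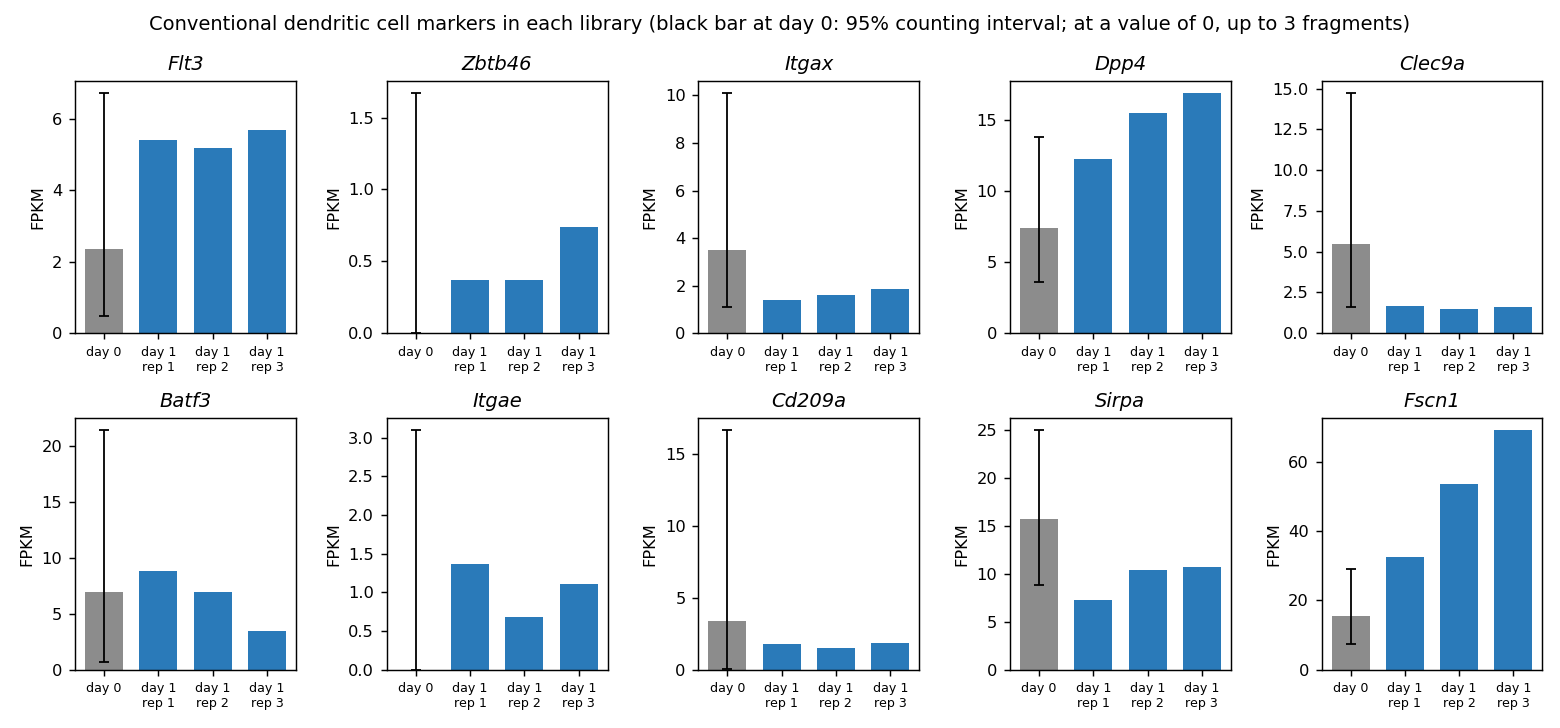
FPKM of each marker (vertical axes, linear, from 0) in the day 0 library (grey) and the 3 day 1 libraries (blue). The black bar at day 0 is the 95% counting interval from estimated fragments, or the range up to 3 fragments where the value is 0; for Flt3 it runs from 0.475 to 6.73 and takes in the day 1 mean of 5.43.

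Among the markers of both subsets, Flt3 was higher at day 1. Flt3 (chromosome 5, 147330741 to 147400489, minus strand, GRCm38) encodes the receptor tyrosine kinase through which FLT3 ligand expands dendritic cells. Its FPKM was 2.36 at day 0 and 5.40, 5.19 and 5.70 in day 1 replicates 1, 2 and 3. The day 1 libraries lay close together, all above day 0, with a mean of 5.43 ± 0.25 (SD, n = 3). The log2 change was 0.94 ± 0.14 (SE, limma adjusted p = 0.016). The day 0 value stands for about 3 fragments, so the 2.30-fold ratio has a counting interval of 0.807 to 11.4. The call ended when any 1 day 1 library was left out (limma adjusted p from 0.052 to 0.073) and when the median change of all genes was set to 0 (limma adjusted p = 0.14, log2 change 0.34), and the authors' deposited table gives a log2 fold change of -0.23 without a call.

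Dpp4 (chromosome 2, 62330073 to 62412231, minus strand) encodes the surface peptidase CD26. Its FPKM was 7.43 at day 0 and 12.2, 15.5 and 16.9 in the day 1 replicates, again with every day 1 library above day 0. The ratio of means was 2.00 (counting interval 1.08 to 4.14, from about 10 fragments at day 0), and the log2 change was 0.90 ± 0.23 (SE, limma adjusted p = 0.048). It was no longer called without day 1 replicate 2 or 3 (limma adjusted p = 0.16 and 0.11) with the median change set to 0 (0.35), with median ratio scaling (0.072), without the filter on low values (0.067), after scaling to protein-coding genes (0.058) or without the intensity trend (0.052). The authors' deposited table gives -0.051.

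Itgax (chromosome 7, 128129547 to 128150657, plus strand) encodes CD11c, the integrin alpha chain by which dendritic cells are usually sorted. It is the marker with a call in both sources. Its FPKM was 3.49 at day 0 and 1.39, 1.59 and 1.83 at day 1, with day 0 above every day 1 library. Day 0 was 2.17 times the day 1 mean of 1.60 ± 0.22 (SD, n = 3), with a counting interval of 0.670 to 6.30 from about 4 fragments. The log2 change was -0.79 ± 0.19 (SE, limma adjusted p = 0.040), and the authors' deposited table gives -2.32 with a false discovery rate of 0.0044. The log2 ratio of the FPKM means is -1.12, so the sources differ in size, and the counts behind the deposited value are not known here. Leaving out any 1 day 1 library ended the limma call (adjusted p from 0.064 to 0.12), as did scaling to protein-coding genes (0.11) and testing without the filter on low values (0.054).

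Zbtb46 (chromosome 2, 181387762 to 181459426, minus strand) encodes the zinc finger transcription factor that separates conventional dendritic cells from other myeloid cells, and it was the lowest of the 10 at day 1. The day 0 library lists it at 0, and the day 1 replicates at 0.368, 0.372 and 0.737. No library reached the FPKM of 1 that the test required, so it was the 1 marker left untested, and its log2 difference was 0.57. The day 1 mean of 0.492 would give about 0.88 fragments at day 0, where 3 fragments equal an FPKM of 1.67. The authors' deposited table gives it a log2 fold change of -0.11 and a mean log2 abundance of 1.88, so the 0 does not show that the transcript was missing.

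Of the cDC1 markers, Clec9a was the lowest relative to day 0. Clec9a (chromosome 6, 129408862 to 129424763, plus strand) encodes a C-type lectin receptor that binds actin filaments exposed by dead cells. Its FPKM was 5.48 at day 0 and 1.65, 1.46 and 1.58 at day 1. The day 1 libraries varied little, at 1.56 ± 0.10 (SD, n = 3), and all lay below day 0. Day 0 was 3.51 times the day 1 mean, and the counting interval of that ratio, from about 4 fragments, was 1.00 to 9.43. The log2 change was -1.34 ± 0.15 (SE, limma adjusted p = 0.0095). The call held in 11 of 12 other limma fits and was lost without day 1 replicate 2 (limma adjusted p = 0.053), and the authors' deposited table gives -2.23 with a false discovery rate of 0.16.

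Batf3 (chromosome 1, 191097847 to 191108945, plus strand) encodes the basic leucine zipper factor that cDC1 development requires. It was the 1 marker whose day 0 value, 6.92, lay within the day 1 range, at 8.81, 6.93 and 3.46. The highest day 1 value was 2.55 times the lowest, which was replicate 3. The log2 change was -0.17 ± 0.55 (SE, limma adjusted p = 0.80), it turned to 0.16 without replicate 3, and the day 0 value stands for about 2 fragments. Whether Batf3 changed could not be told with this spread at day 1 and so few fragments at day 0. The authors' deposited table gives -0.36 without a call.

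Itgae (chromosome 11, 73090583 to 73147446, plus strand) encodes CD103, the integrin alpha chain that pairs with beta 7 and is carried by cDC1 cells and by some T cells. The day 0 library lists it at 0, below the 1.37, 0.680 and 1.10 of the day 1 replicates. The log2 change of 1.02 ± 0.28 (SE) did not pass (limma adjusted p = 0.054). With a day 0 value of 0 the pseudocount sets this log2 change, which was 1.61 at a pseudocount of 0.5 and 3.48 at 0.1, and Itgae entered the test only through the day 1 libraries, so the calls it gained under 4 alternatives are not read. The day 1 mean of 1.05 would give about 1.02 fragments at day 0, and 3 fragments there equal an FPKM of 3.10. The authors' deposited table gives 1.30 without a call, the highest value of the 10 there, though Itgax, Clec9a and Cd209a lie farther from 0.

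The cDC2 markers both stood lower at day 1, though each day 1 mean lay inside its day 0 counting interval. Cd209a (chromosome 8, 3743397 to 3748984, minus strand) encodes a mouse homologue of the lectin DC-SIGN, with close relatives beside it in the genome among which short reads could be shared. Its FPKM was 3.38 at day 0 and 1.81, 1.49 and 1.85 at day 1, with day 0 above every day 1 library. The log2 change was -0.69 ± 0.18 (SE, limma adjusted p = 0.047), but the day 0 value rests on about 1 fragment, and the 1.97-fold ratio of day 0 to day 1 has a counting interval of 0.0441 to 9.71. The call ended without any 1 day 1 library (limma adjusted p from 0.091 to 0.11), after scaling to protein-coding genes (0.12), without the filter on low values (0.064) and with a pseudocount of 0.1 (0.052). The authors' deposited table gives -2.16 with a false discovery rate of 0.13.

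Sirpa (chromosome 2, 129592835 to 129632228, plus strand) encodes the receptor for the "do not eat me" signal CD47. It had the highest day 0 value of the 10, 15.8, and stood at 7.33, 10.4 and 10.8 at day 1, with day 0 above every day 1 library. The log2 change was -0.69 ± 0.27 (SE, limma adjusted p = 0.11), which did not pass. It passed when the median change of all genes was set to 0 (-1.29, adjusted p = 0.034) and with median ratio scaling (-0.95, adjusted p = 0.049). Its day 0 value rests on about 16 fragments, the most of any marker, and the counting interval of 8.82 to 25.1 takes in the day 1 mean of 9.49. The authors' deposited table gives -0.25 without a call.

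Fscn1 (chromosome 5, 142960343 to 142973185, plus strand) encodes fascin, which bundles actin filaments in the long processes of mature dendritic cells. It showed the largest rise in FPKM among the markers, from 15.5 at day 0 to 32.6, 53.5 and 69.2 at day 1. Every day 1 library lay above day 0, and the highest was 2.12 times the lowest. Day 1 was 3.33 times day 0, with a counting interval of 1.79 to 6.86 from about 10 fragments. The spread between the day 1 libraries kept it from passing: the log2 change was 1.61 ± 0.50 (SE, limma adjusted p = 0.071), and it passed without replicate 1 (1.90, adjusted p = 0.042). The authors' deposited table gives 1.00 with a false discovery rate of 0.52.

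The day 0 counts set how far these differences can be read. The markers rested on about 0 to 16 fragments at day 0 and on about 8 to 968 at day 1. For 7 of the 10, the day 1 mean lay inside the range that counting error alone allowed at day 0. The exceptions were Fscn1 and Dpp4, above it, and Clec9a, just below it. For Clec9a the day 1 mean would give 1.086 fragments against a lower bound of 1.090, with the estimate of 3.81 rounded to 4. A margin this small is within that rounding, so its place outside is not firm. The same share over all genes was not worked out, so 7 of 10 is not read as a trait of the markers. These intervals cover counting error only and use the length of all annotated exons, which can overstate fragments for genes with several transcripts.

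**Figure D2:**
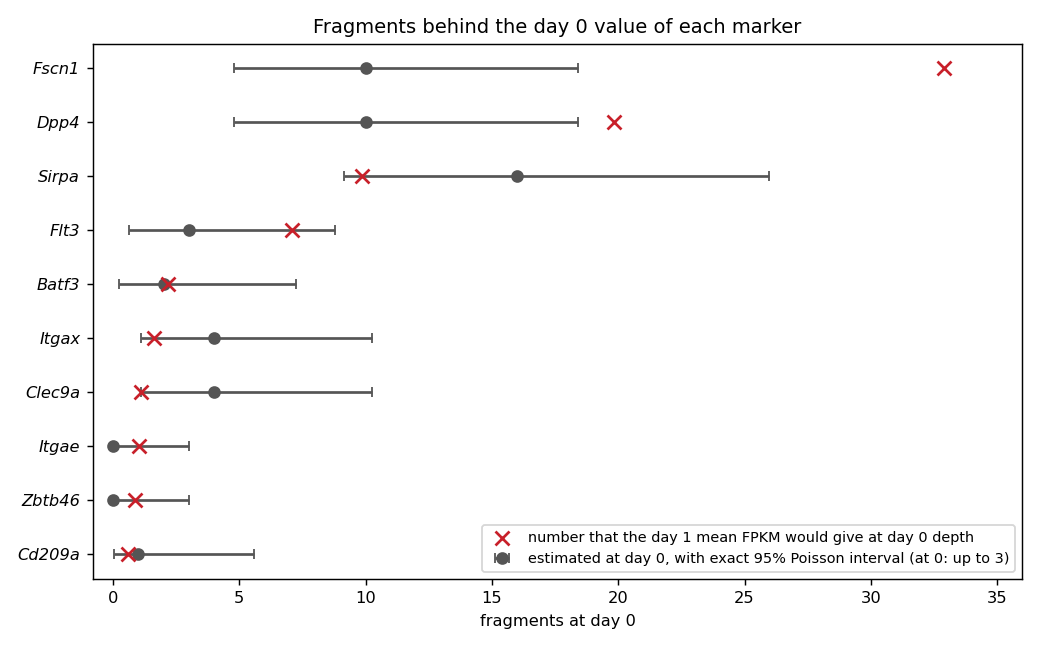
Estimated fragments behind each marker at day 0 (grey points, horizontal axis, with exact 95% Poisson intervals or, at 0, the range up to 3) and the number that the day 1 mean FPKM would give at the same depth (red crosses). The crosses of Fscn1, at 32.9, and Dpp4, at 19.8, lie above their intervals. The cross of Clec9a, at 1.086, lies just below the lower end of its interval, at 1.090.

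At day 1 the FPKM levels, which are per length, ran from Fscn1 (mean 51.8) through Dpp4 (14.9), Sirpa (9.49), Batf3 (6.40) and Flt3 (5.43) to Cd209a (1.72), Itgax (1.60), Clec9a (1.56), Itgae (1.05) and Zbtb46 (0.492). Sirpa overlapped with Batf3 and Batf3 with Flt3 over the day 1 libraries, Cd209a, Itgax and Clec9a could not be ordered, and Itgae overlapped with Zbtb46, while the other neighbours were apart in every library. The day 0 order rests on about 0 to 16 fragments, and the counting intervals of neighbours in it overlap: Sirpa (15.8) and Fscn1 (15.5) led, Clec9a (5.48) stood above Flt3 (2.36), and Itgae and Zbtb46 were at the bottom. Among protein-coding genes, Fscn1 moved from the 76.0th percentile at day 0 to between the 85.0th and the 93.4th at day 1, and Clec9a from the 56.5th to between the 32.6th and the 34.4th.

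Day 1 libraries differed in a few markers more than in others. The coefficient of variation over the 3 libraries was 4.69% for Flt3 and 6.22% for Clec9a but 35.5% for Fscn1, 42.4% for Batf3 and 43.0% for Zbtb46, and its median over the 10 was 18.0%, against 17.5% over the 11866 genes with a day 1 mean of at least 1. Replicate 3 was the highest library for 7 of the 10, as it was for 41.2% of the genes tested. The summed FPKM of the 10 markers was 72.9, 97.1 and 113 in replicates 1, 2 and 3, and 60.4 at day 0. Without Fscn1 the sums were 40.4, 43.6 and 43.9, and 44.8 at day 0, so the rise in the sum lay in Fscn1. The summed FPKM of 10 B cell markers was 4062, 3918 and 3457 in the same libraries, lowest in replicate 3, and its part in these values was not tested.

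For most of the markers the authors' deposited table holds lower log2 fold changes than the FPKM give. Of the 8 markers above 0 at day 0, 7 had a lower value in the authors' deposited table than the log2 ratio of the FPKM means, and Sirpa had a higher one (-0.25 against -0.73). The median difference was 0.90 over these 8, against 0.20 over 9826 genes tested that were above 0 in both groups. Flt3 and Dpp4, which rose in limma, have values close to 0 there, and 8 of the 10 values in the authors' deposited table are below 0. The matching shares of all genes were not worked out, so these counts of 7 and 8 are not read as a trait of the markers. The median log2 change in limma was -0.17 over the 9 markers tested, against 0.59 over all genes tested. Over all 10 markers without the filter the median was 0.20, and the matching median of all genes without the filter was not worked out. Without genes listed at 0 at day 0, the medians were -0.43 over 8 markers and 0.018 over all genes tested. In the authors' deposited table the median was -0.24 for the markers and 0.03 for all genes. The balance of calls over all genes moved with the scaling: limma called 4869 higher and 2640 lower, 3034 and 3895 with the median change set to 0, and 2834 and 2719 without genes listed at 0 at day 0. A call of higher was given to 49 genes, and of lower to 443, in the authors' deposited table.

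**Figure D3:**
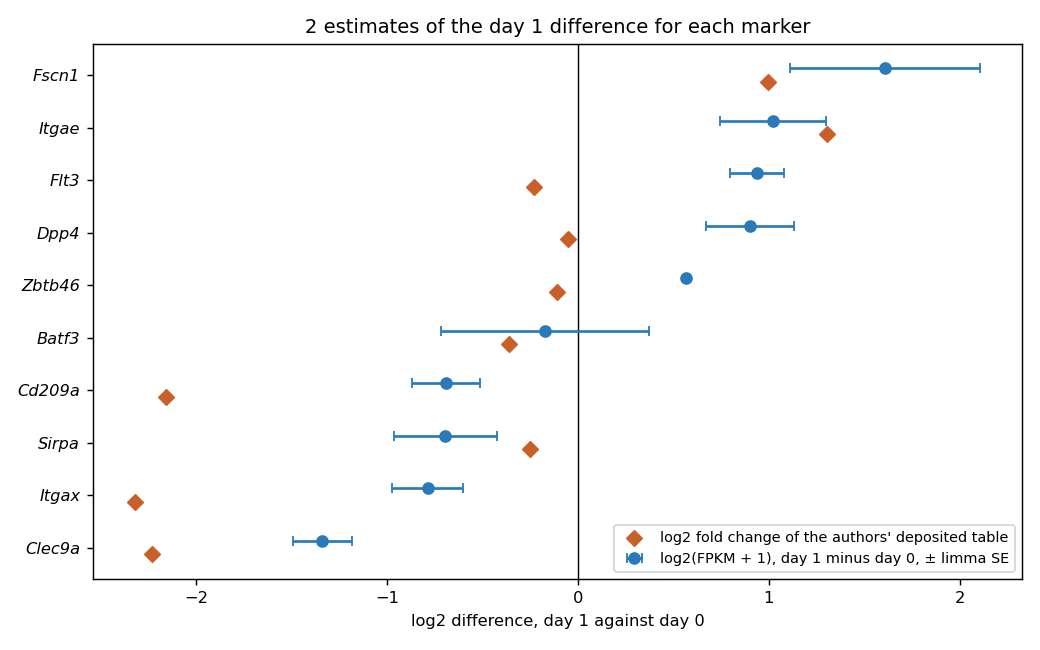
Log2 difference of day 1 against day 0 for each marker (horizontal axis) on the log2(FPKM + 1) scale with limma standard errors (blue circles) and as the log2 fold change of the authors' deposited table (orange diamonds). Zbtb46 has no standard error because it was not tested. Flt3 stands at 0.94 and -0.23, and Itgax at -0.79 and -2.32.

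Of 14 other genes of the cDC1 subset tested, 4 fell and 4 rose, where 19.0% of all genes fell and 35.0% rose. Their median log2 change was 0.09, against 0.59 over all genes and 0.018 over tested genes above 0 at day 0. Xcr1, the chemokine receptor of cDC1 cells, fell from 3.84 to 0, 0.071 and 0.209, and Cadm1, an adhesion molecule, fell from 8.35 to 0.563, 0.487 and 0.522 (log2 change -2.62, limma adjusted p = 0.0040). The authors' deposited table calls both lower, at -4.50 and -3.79. Gcsam, with about 2 fragments at day 0, and Tlr3, a sensor of double-stranded RNA, also fell. The rises included Irf8, a transcription factor of cDC1 and B cells, which went from 54.7 to 133 ± 27 (SD, n = 3), and Id2, an inhibitor of E proteins, which went from 11.3 to 33.8 ± 6.3 (SD, n = 3). Ppt1 and Snx22 were the other rises, and the authors' deposited table calls none of the 4. Snx22, listed at 0 at day 0, entered the test only through the day 1 libraries, so its rise is not read. Its day 1 mean would give about 0.87 fragments at day 0, and the authors' deposited table gives -0.30.

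Of 14 cDC2 companions, 4 fell and 1 rose, against 19.0% and 35.0% of all genes. Their median was -0.15, against 0.59 over all genes and 0.018 over tested genes above 0 at day 0. Cd300a, an inhibitory receptor, fell from 14.4 to 0.910, 1.77 and 2.21 and also has a lower call, at -2.50, in the authors' deposited table. Ltb, which encodes lymphotoxin beta and is also made by B cells, fell from 380 to 134 ± 11 (SD, n = 3). Clec10a, a lectin, fell from 7.28, about 4 fragments, to 2.69, 1.37 and 2.25. Clec4a4, which has close relatives, fell from 6.30, about 1 fragment, to 1.83 ± 0.22 (SD, n = 3). For both, the day 1 mean lay inside the day 0 counting interval, and the authors' deposited table calls neither. Esam, listed at 0 at day 0, was the rise, but it entered the test only through the day 1 libraries and is not read. Its day 1 mean would give about 0.73 fragments at day 0. Irf4, a transcription factor that cDC2 cells and activated B cells use, stood at 15.8 and then 22.6, 25.4 and 31.1, which did not pass (limma adjusted p = 0.079).

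Genes of dendritic cell origin and growth factor signalling rose in 5 and fell in 2 of 16, near the 35.0% and 19.0% of all genes. Their median was 0.40, against 0.59 over all genes and 0.018 over tested genes above 0 at day 0. Spi1, which encodes PU.1, rose from 41.7 to 86.4, 118 and 128 (log2 change 1.37, limma adjusted p = 0.030). Relb, an NF-kappaB subunit, rose from 21.4 to 61.0 ± 1.7 (SD, n = 3), and Nfil3, at 0 in the day 0 library, had 2.63, 2.47 and 3.38. Nfil3 entered the test only through the day 1 libraries, so its rise is not read. Its day 1 mean would give about 1.21 fragments at day 0, and the authors' deposited table gives -0.92. Zeb2, a repressor, fell from 24.6 to 5.39 ± 0.63 (SD, n = 3), and Csf2, the cytokine GM-CSF, from 6.10, about 1 fragment, to 0, 0 and 0.557. The ligand Flt3l stood at 14.2 and then 27.2, 33.8 and 22.2, which did not pass (limma adjusted p = 0.075). The authors' deposited table calls none of the 16.

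Of 19 tested genes that dendritic cells raise as they mature, 13 rose and 1 fell, against 35.0% and 19.0% of all genes. Their median was 1.75, against 0.59 over all genes and 0.018 over tested genes above 0 at day 0. Among the 13 were 3 with a 0 in the day 0 library. These 3 entered the test only through the day 1 libraries, so their rises are not read. Ccr7, the receptor that guides mature cells to T cell areas, rose from 26.2 to 100, 108 and 107 (log2 change 1.96, limma adjusted p = 0.0038). Cacnb3, a calcium channel subunit, rose from 1.74, about 1 fragment, to 20.3 ± 0.2 (SD, n = 3), and it and Ccl22 are the 2 that the authors' deposited table calls higher. Il15ra was listed at 0 and then at 6.10, 6.29 and 6.14, and Cd274, which encodes PD-L1, fell and is called lower in that table as well (-2.01). Several of these genes, Cd40, Cd83, Cd86 and Ccr7 among them, are also made by activated B cells, and in the authors' deposited table the list's median was 0.21.

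**Figure D4:**
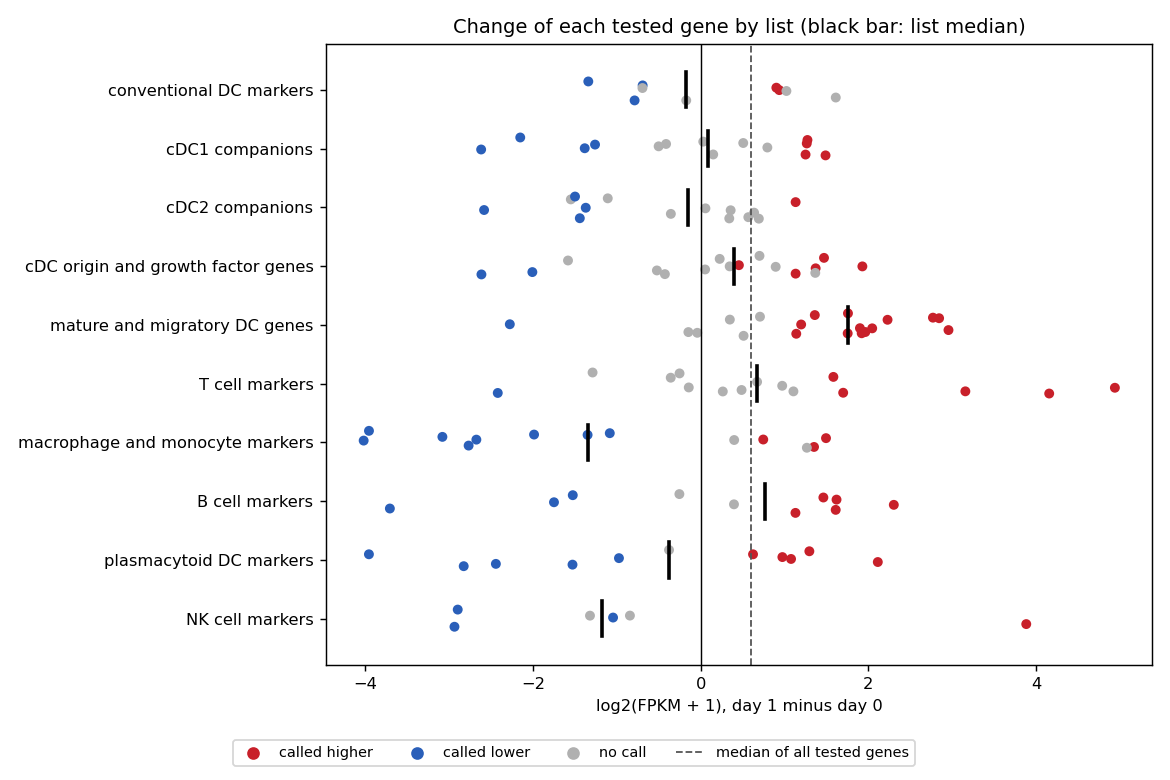
Log2(FPKM + 1) at day 1 minus day 0 (horizontal axis) for each tested gene, by list; red points were called higher, blue lower and grey neither by limma, black bars are list medians and the dashed line, at 0.59, is the median of all genes tested. The markers' median lies at -0.17 and that of the mature dendritic cell genes at 1.75. The median of tested genes above 0 at day 0, 0.018, is not drawn.

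Markers of other cells that share these transcripts moved in several directions, and their counts stand against the same 35.0% of all genes called higher and 19.0% called lower. Of 15 T cell markers, 5 rose and 1, Cd3d, fell, and their summed FPKM was 326 at day 0 and 379 to 453 at day 1. Trac and Trbc1, constant regions of the T cell receptor, and Cd5, 3 of the 5 rises, were listed at 0 at day 0, which can be a failed estimate: the authors' deposited table gives them -0.22, 0.0081 and 0.27 without a call. Cd3e stood at 13.2 and then 26.9, 20.7 and 18.2, and Cd8a at 4.46 and then 3.94, 4.29 and 3.63. These transcripts and Dpp4 were present at both times, and Itgae was listed at 0 at day 0. Of 15 macrophage and monocyte markers, 13 were tested, of which 8 fell, the complement genes C1qa, C1qb and C1qc and the adhesion gene Vcam1 by the most, and 3 rose. Of the 15, 7 have a lower call in the authors' deposited table, where 2.53% of all genes do. Their sums were 167 and 148 to 156, and Fcgr1, Mertk and Cd14 were at 0 at day 0. Csf1r fell from 18.2 to 3.05, 4.39 and 4.24. Adgre1 rose from 8.61, about 6 fragments, to 13.9, 14.5 and 17.1, but its day 1 mean lay inside the day 0 counting interval. Of 11 plasmacytoid dendritic cell markers, 5 rose, Smim5 among them from a 0, and 5 fell, Tcf4 and Klk1 among them, with 2 lower calls in the authors' deposited table. Their sums of 999 and 1083 to 1242 take in Ly6d, which B cells also make, at 429 and then 980, 931 and 815. Siglech fell from 222 to 10.8, 16.2 and 13.6. Flt3 was called higher by limma on about 3 fragments at day 0, and the authors' deposited table gives it -0.23. Of 8 NK cell markers, 6 were tested, of which 3 fell (Klrb1c, Eomes and Gzma) and 1 rose (Klrd1), with sums of 50.7 and 26.8 to 29.9, and Ncr1, Klrd1 and Prf1 were at 0 at day 0. Gzma rested on about 2 fragments at day 0, though the authors' deposited table calls it lower too. Of 10 B cell markers, 5 rose, Cd79a among them, and 3 fell, Cr2 among them, with sums of 3672 and 3457 to 4062. Pax5, which held most of the day 0 sum, fell from 2118 to 161, 158 and 165. The part of these cells in the markers' values was not tested.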

How the data were processed

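FPKM values were deposited by the authors for 4 libraries in 1 table of 17519 genes, made with Cufflinks per the labels' protocols, with the 3′ adaptor trimmed and reads under 10 nt dropped. The build was GRCm38.p6 and the tools were TopHat 1.4.1, Cufflinks 2.2.1, Cuffdiff and cutadapt, per the submitters' processing notes; strand handling is not given in the sources used here. Per the file headers, the authors deposited a log2 fold change, a mean log2 abundance, a false discovery rate and a p-value without naming a test; a call there is a rate under 0.05.

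Changes were tested with limma 3.58.1 (trend, R 4.3.3) on log2(FPKM + 1), a scale that understates changes of low genes, over the 13903 genes that reached an FPKM of 1 in 1 or more libraries. P-values were adjusted by Benjamini-Hochberg and called under 0.05. A gene listed at 0 at day 0 entered the test only through the day 1 libraries. A rise called for such a gene is not read. Day 0 has 1 library, whose spread was taken from the 3 day 1 libraries (2 residual degrees of freedom); p-values cover their spread only, and it may be technical. The fit was tested on simulated data in which day 0 had the day 1 spread and no lower depth. The simulation thus could not test the assumption made about day 0.

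Fragments were estimated from the step in FPKM times length over 1182 single-transcript genes (GENCODE M21, GRCm38): 65.1% to 71.9% of low values lay within 0.1 of a whole number, where chance gives 20%. A count of 0 allows up to 3 fragments. Exact Poisson intervals are at 95%. The FPKM of a 2 kb transcript with 3 fragments is 7.11 at day 0 and 0.323 to 0.498 at day 1.

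The markers and lists were chosen with earlier results of these data known. All 10 markers are named, and from each list up to 4 genes past the threshold with the largest change and 13 fixed by name, of which 1 is not reported here; others named were chosen after their values were seen. All 133 list entries were matched by gene ID or symbol. Alternatives were other pseudocounts, filters, scalings and left-out libraries.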

Additional observations from a re-analysis of the deposited data

How the results depend on the processing

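The 2 markers called higher and 3 called lower became 1 and 1 without the filter on low values, and Zbtb46, then tested, did not pass (limma adjusted p = 0.12). With an FPKM of at least 5, 1 of 6 tested was lower, and the markers' median log2 change went from -0.17 to 0.36. With the median change of all genes set to 0, 0 markers were higher and 4 lower, the median was -0.77, and 3034 genes were called higher in place of 4869. With median ratio scaling 1 marker was higher and 4 lower. With protein-coding FPKM scaled to 1 total, 1 marker was lower and the median was 0.45. Without genes listed at 0 at day 0, 2834 genes were called higher. When 1 day 1 library was left out, 0 to 2 markers were higher and 0 to 1 lower, the median ranged from -0.41 to 0.16, and 2317 to 3875 genes were called higher and 1317 to 2012 lower; the lowest counts came without replicate 2. The authors' deposited table calls 0 markers higher and 1 lower, and 49 and 443 genes. Batf3 turned to 0.16 without replicate 3, and Flt3 and Dpp4 are at -0.23 and -0.051 in the authors' deposited table; the cause was not tested. Pseudocounts of 0.1 and 0.5 and the fit without a trend kept each of these counts within 1.5 times and the median within its spread over day 1 libraries. The genes behind the counts changed: Itgae, which is not read, was called higher in each (limma adjusted p = 0.016, 0.039 and 0.048). Dpp4 was lost without the trend (0.052), and Cd209a with a pseudocount of 0.1 (0.052). After scaling to protein-coding genes, Itgae was called (0.027) and Dpp4 was not (0.058). No paired analysis was possible because day 0 has 1 library. Depth at day 0 limits all marker values.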
